A study of Mus musculus with 6 samples.

Results

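The CCR4-NOT complex shortens the poly(A) tails of mRNAs, and the genes of its subunits were followed in NK cells that had lost the m6A writer METTL3. Members were the rows of the expression table whose gene symbol was Cnot1, Cnot2, Cnot3, Cnot4, Cnot6, Cnot6l, Cnot7, Cnot8, Cnot10 or Cnot11. All 10 were found among the 14490 genes listed, and all 10 passed the filter on low values. mRNA was sequenced from NK cells sorted from the spleens of C57BL/6 mice, with 3 WT samples (Mettl3fl/fl) and 3 cKO samples (Ncr1Cre-Mettl3fl/fl). Both genotypes carried the loxP-flanked Mettl3 alleles, and the cKO mice also carried Cre expressed from the Ncr1 locus, which is active in NK cells and in some other innate lymphoid cells. The labels give the WT samples no Cre, so the Cre allele and the loss of Mettl3 cannot be told apart. According to the methods, mice were 6 to 10 weeks old, and no tumour or cytokine treatment is given for these samples. Nothing in the labels says whether the 3 samples of a genotype came from separate mice, and the p-values therefore measure only the spread between these samples.

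CCR4-NOT is the main cytoplasmic deadenylase of animal cells. CNOT1 is the scaffold on which the other subunits assemble. CNOT2 and CNOT3 form the NOT module, and CNOT10 and CNOT11 bind the amino-terminal part of the scaffold. The complex holds a pair of nucleases, one of the CCR4 type (CNOT6 or its paralogue CNOT6L) and one of the CAF1 type (CNOT7 or its paralogue CNOT8), and the paralogues of each type occupy the same place. CNOT4 is a ubiquitin ligase that in mammals is only loosely joined to the complex. Adaptors bring the complex to chosen mRNAs, among them BTG and TOB proteins, the TNRC6 proteins of the microRNA pathway and YTHDF2, a reader of m6A that binds CNOT1. Comparing cKO with WT asks whether the transcripts of this machinery differ when the enzyme that writes m6A is missing.

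The reads on listed genes numbered between 55965515 and 71464042 per sample. Values are normalized counts, which are read counts divided by the size factor of the sample. Mettl3, the deleted gene, had 1192 to 1303 normalized counts in WT and 297 to 405 in cKO (log2 fold change −1.92, SE 0.0986, adjusted p = 2.32e-14 by limma). The cKO samples thus kept a Mettl3 signal, and reads per exon were not used here. Among 12 NK-cell markers, each gene was detected in every sample, and their sum was 985089 to 1019560 normalized counts in WT and 939940 to 983715 in cKO. Of these markers 6 fell, 2 rose (Tbx21 and Il2rb, by 0.23 and 0.14 on the log2 scale) and 4 were not called, and with equal totals 5 were lower and 4 higher. Ncr1, whose locus carries the Cre, was among those that fell (by 0.40 on the log2 scale, adjusted p = 3.56e-11).

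The sequences of the paralogues decide whether reads can be assigned to one of them. Over the aligned coding bases, Cnot8 and Cnot7 were identical at 600 of 858 positions (69.9%), and Cnot6 and Cnot6l at 1212 of 1653 positions (73.3%). The longest run without a difference was 20 bases in both pairs. The stretch of 150 bases, the length of a read, in which each pair is hardest to tell apart is printed here from the GENCODE transcripts of GRCm38, 5′ to 3′ on the coding strand, with the bases that differ from the paralogue in capitals. It covers coding positions 337 to 486 of Cnot8, counted from 1 at the A of the start codon, and positions 815 to 964 of Cnot6. Both genes lie on chromosome 11.
Cnot8: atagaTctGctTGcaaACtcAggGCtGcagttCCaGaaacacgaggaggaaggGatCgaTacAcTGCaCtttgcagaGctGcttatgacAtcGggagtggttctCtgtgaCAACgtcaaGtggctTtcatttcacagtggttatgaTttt
Cnot6: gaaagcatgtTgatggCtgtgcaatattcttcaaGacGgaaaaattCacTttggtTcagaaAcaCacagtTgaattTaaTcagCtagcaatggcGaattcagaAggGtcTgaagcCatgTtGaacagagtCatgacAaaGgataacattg
The Cnot8 stretch differs from Cnot7 at 33 bases (78.0% identical), and the Cnot6 stretch differs from Cnot6l at 23 bases (84.7% identical). Across all 698 windows of this length, Cnot8 and Cnot7 differed at 33 to 59 bases (median 42). Cnot6 and Cnot6l differed at 23 to 50 bases (median 38) over 1206 windows. Every window of read length thus held at least 23 differences, within the aligned coding bases.

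In cKO NK cells, transcripts of Cnot8, Cnot4 and Cnot3 rose and those of Cnot7 fell, each by less than 20%. Cnot8 rose by 19.5%, Cnot4 by 19.6% and Cnot3 by 10.1%, whereas Cnot7 fell by 14.2%. The scaffold Cnot1 and the NOT subunit Cnot2 did not pass the test, with log2 fold changes of −0.023 and 0.00068. Thus 4 of 10 subunits (40%) passed an adjusted p of 0.05 by limma, beside 36.6% of all 14490 genes. Of the subunits, 3 were higher, beside 17.8% of all genes, and 1 was lower, beside 18.8%. The share of subunits called was near that of all genes, so the count itself is no result about the complex. The size factors left the WT samples with larger totals than the cKO samples (66.1 to 66.7 against 63.6 to 64.9, in units of 1e+06 normalized counts). When all totals were made equal, 5 subunits were higher and 1 was lower. Of all genes, 2576 were higher and 2731 lower with the size factors, against 3487 and 2016 with equal totals. The changes were small: the median size of the log2 fold change was 0.10 over the subunits and 0.17 over all genes, 7 subunits lay below that of all genes, and all 10 confidence intervals at the 95% level lay within 0.5 of zero. A change larger than that of Cnot4, the largest of the 10, was measured for 32.9% of all genes. The mean count lay below that of the lowest subunit (1565 normalized counts) for 60.1% of all genes. The shares and sizes over all genes, here and below, were not matched for level.

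The WT and cKO values did not overlap for 7 of 10 subunits, beside 45.7% of all genes. The cKO samples lay above all WT samples for Cnot3, Cnot4, Cnot6l and Cnot8, and below them for Cnot7, Cnot10 and Cnot11. The other 3 subunits (Cnot1, Cnot2 and Cnot6) overlapped. With 3 samples per genotype, the exact permutation test cannot go below p = 0.1, two-sided, and all 7 subunits without overlap reached that value. B-cell markers moved with the genotype in these samples: 6 of 8 markers rose and none fell, and their sum was 1340 to 1380 normalized counts in WT and 1826 to 1882 in cKO. Their part in the results was not tested. Of the T-cell markers, 2 of 7 listed fell (summed 1840 to 2056 in WT, 1438 to 1645 in cKO). Of 5 listed myeloid markers, 2 rose and 1 fell (summed 6125 to 6689 and 5958 to 6686), and of 5 listed erythroid and platelet markers none was called (summed 811 to 870 and 684 to 832). No listed marker was at 0 in all samples. In these bulk samples, fewer cells of a type and less RNA per cell cannot be told apart.

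**Figure D1:**
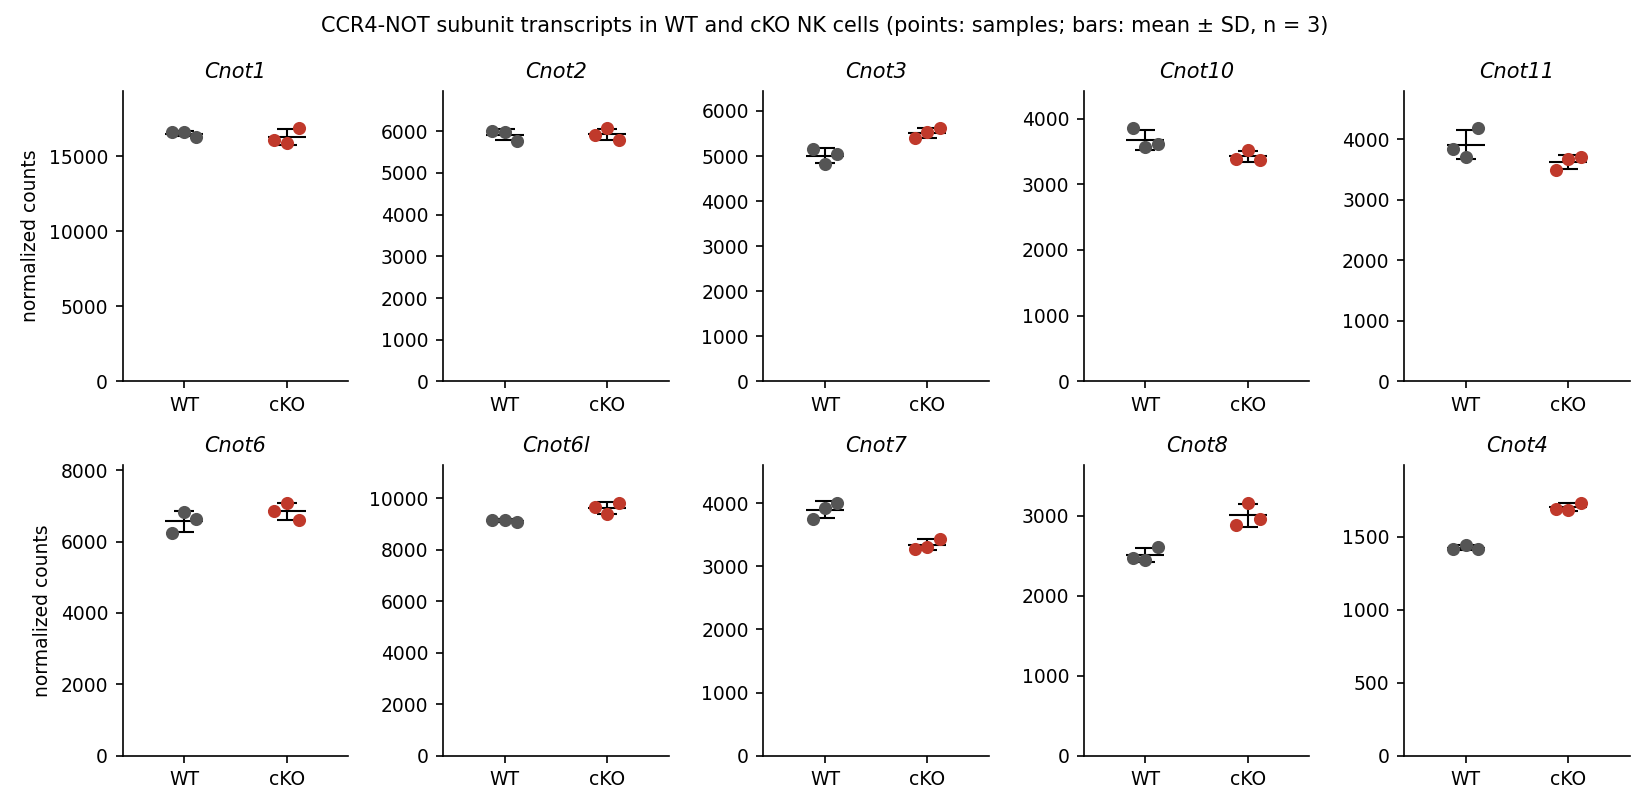
Normalized counts of the 10 CCR4-NOT subunit genes (y axis, from 0) in 3 WT samples (grey) and 3 cKO samples (red), with the mean and SD of each genotype as bars. Cnot8, Cnot4 and Cnot3 lie higher in every cKO sample and Cnot7 lies lower in every cKO sample, while Cnot1 and Cnot2 overlap.

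Among the structural subunits, Cnot3 rose and the others did not pass the test. Cnot1, which encodes the scaffold, spans positions 95719451 to 95807464 on the minus strand of chromosome 8 (GRCm38). It had 16608, 16633 and 16320 normalized counts in the WT samples and 16081, 15859 and 16857 in the cKO samples. The third cKO sample was the highest of all 6 and the other two cKO samples were the lowest, so the genotypes overlapped. The log2 fold change of −0.023 (SE 0.0319, 95% interval −0.088 to 0.043, adjusted p = 0.623) turned to 0.027 with equal totals, and the exact permutation p was 0.5. Cnot2 (minus strand of chromosome 10, 116485161 to 116581511) had means of 5923 ± 132 normalized counts in WT and 5926 ± 137 in cKO (SD, n = 3). Its interval ran from −0.075 to 0.076 (adjusted p = 0.991), and its sign changed when single samples were left out.

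Cnot3 encodes the partner of CNOT2 in the NOT module and lies on the plus strand of chromosome 7 from 3645268 to 3661109. It had 5147, 4829 and 5047 normalized counts in WT and 5399, 5529 and 5611 in cKO, and every cKO sample exceeded every WT sample. The log2 fold change was 0.14 (SE 0.0383, 95% interval 0.060 to 0.22, adjusted p = 0.00523). Within samples, the ratio of Cnot2 to Cnot3 was 1.17, 1.24 and 1.14 in WT and 1.10, 1.10 and 1.03 in cKO. This ratio was lower in all cKO samples, by a log2 difference of −0.14 (exact permutation p = 0.1).

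The transcripts of the module at the amino-terminal part of the scaffold differed in the same direction, short of the threshold. Cnot10 (minus strand of chromosome 9, 114585878 to 114640184) had 3849, 3563 and 3611 normalized counts in WT and 3382, 3526 and 3371 in cKO. Cnot11 (plus strand of chromosome 1, 39534992 to 39546889) had 3838, 3712 and 4181 normalized counts in WT and 3498, 3677 and 3705 in cKO. For each gene all cKO samples lay below all WT samples, with a gap between the nearest samples that was smaller than the SD of either genotype. The log2 fold changes were −0.10 for Cnot10 (SE 0.0431, adjusted p = 0.0705) and −0.11 for Cnot11 (SE 0.0454, adjusted p = 0.0665). Both passed the threshold without the second WT sample (adjusted p = 0.0476 and 0.0211) and with values adjusted for the GC content and length of each gene (0.0120 and 0.0132). With equal totals both changes kept their sign but were smaller, at −0.051 for Cnot10 (adjusted p = 0.364) and −0.058 for Cnot11 (0.353). Cnot10 was −0.066 without WT sample 1 (adjusted p = 0.296) and Cnot11 −0.058 without WT sample 3 (0.379). The ratio of Cnot10 to Cnot11 ranged from 0.864 to 1.003 in WT and from 0.910 to 0.967 in cKO, with a log2 difference of 0.0069 (exact permutation p = 0.9).

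The genes of the CCR4-type nucleases were higher on average in cKO, but neither passed the threshold. Cnot6 (minus strand of chromosome 11, 49671503 to 49712723) had 6567 ± 303 normalized counts in WT and 6856 ± 239 in cKO, and the genotypes overlapped (log2 fold change 0.062, SE 0.0392, adjusted p = 0.229, exact permutation p = 0.3). Cnot6l (minus strand of chromosome 5, 96070333 to 96164171) had 9145, 9157 and 9069 normalized counts in WT and 9672, 9372 and 9822 in cKO. All cKO samples were above the WT samples, which differed from each other by less than the counting error of 1.03%. The log2 fold change of Cnot6l was 0.076 (SE 0.0333, 95% interval 0.0081 to 0.14, adjusted p = 0.0744). With equal totals both genes passed the threshold (0.11 with adjusted p = 0.0225 for Cnot6, 0.13 with adjusted p = 0.00392 for Cnot6l). The change of Cnot6 was smaller without WT sample 1 (0.026, adjusted p = 0.683) or cKO sample 2 (0.038, adjusted p = 0.545). The ratio of Cnot6l to Cnot6 stayed within the spread of the samples, at 1.47, 1.34 and 1.37 in WT and 1.41, 1.32 and 1.48 in cKO (log2 difference 0.014, exact permutation p = 0.9).

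The CAF1-type nucleases showed opposite changes of a gene and its paralogue. Cnot7 lies on the minus strand of chromosome 8 from 40492540 to 40515847. It had 3748, 3930 and 4010 normalized counts in WT and 3273, 3315 and 3442 in cKO, a decline from 3896 ± 134 to 3343 ± 88.1 (SD, n = 3). The highest cKO sample was below the lowest WT sample. Cnot7 fell by 0.22 on the log2 scale (SE 0.0423, 95% interval −0.31 to −0.13, adjusted p = 0.000158). Cnot8, whose protein takes the same place in the complex, lies on the plus strand of chromosome 11 from 58104153 to 58118594. It had 2478, 2450 and 2611 normalized counts in WT and 2889, 3163 and 2959 in cKO, a rise from 2513 ± 86.5 to 3004 ± 143. Every cKO sample exceeded the highest WT sample, and the log2 fold change was 0.26 (SE 0.0473, 95% interval 0.16 to 0.35, adjusted p = 9.55e-05). Of the 10 subunits, Cnot8 had the lowest adjusted p.

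The balance between these paralogues differed more than the level of either gene, as follows from their opposite changes. The ratio of Cnot8 to Cnot7 was 0.661, 0.623 and 0.651 in WT and 0.883, 0.954 and 0.860 in cKO. The lowest cKO ratio exceeded the highest WT ratio, and on average the ratio was 1.39-fold higher in cKO (log2 difference 0.48, from 0.43 to 0.51 with single samples left out). A ratio within a sample does not depend on the scaling between samples. The exact permutation p was 0.1, the smallest that 3 against 3 samples allow, for this ratio and for Cnot2 to Cnot3, of 5 ratios compared. Benjamini-Hochberg adjustment over the 5 ratios gave 0.25 for both. Of the normalized counts on both genes, Cnot8 held 38.4 to 39.8% in WT and 46.2 to 48.8% in cKO. Per kilobase of annotated exon, its share was 57.9 to 59.3% in WT and 65.5 to 67.8% in cKO. A share or sum per kilobase depends on the length used. Per kilobase of the longest coding transcript, WT Cnot8 (1197) lay below WT Cnot7 (1306). The sum of the normalized counts of both genes, added after these changes were seen, was 6225, 6379 and 6621 in WT and 6161, 6478 and 6401 in cKO (log2 difference −0.014, exact permutation p = 0.8). These sums overlapped, and the sign of their difference turned with equal totals (0.036) and with the sum taken per kilobase (1623 ± 50.4 in WT, 1714 ± 55.7 in cKO, log2 difference 0.079, exact permutation p = 0.2). The sum of Cnot6 and Cnot6l was 15691 ± 303 normalized counts in WT and 16478 ± 49.7 in cKO. That of all 4 nuclease genes was 22099 ± 428 and 22825 ± 124. Each was higher in every cKO sample (log2 differences 0.071 and 0.047, exact permutation p = 0.1 each). The sum over all subunits overlapped between the genotypes (log2 difference 0.018, exact permutation p = 0.2). None of these sums was among the planned comparisons. The sum over all 4 nuclease genes relative to Cnot1 had a log2 difference of 0.070 (exact permutation p = 0.2).

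**Figure D2:**
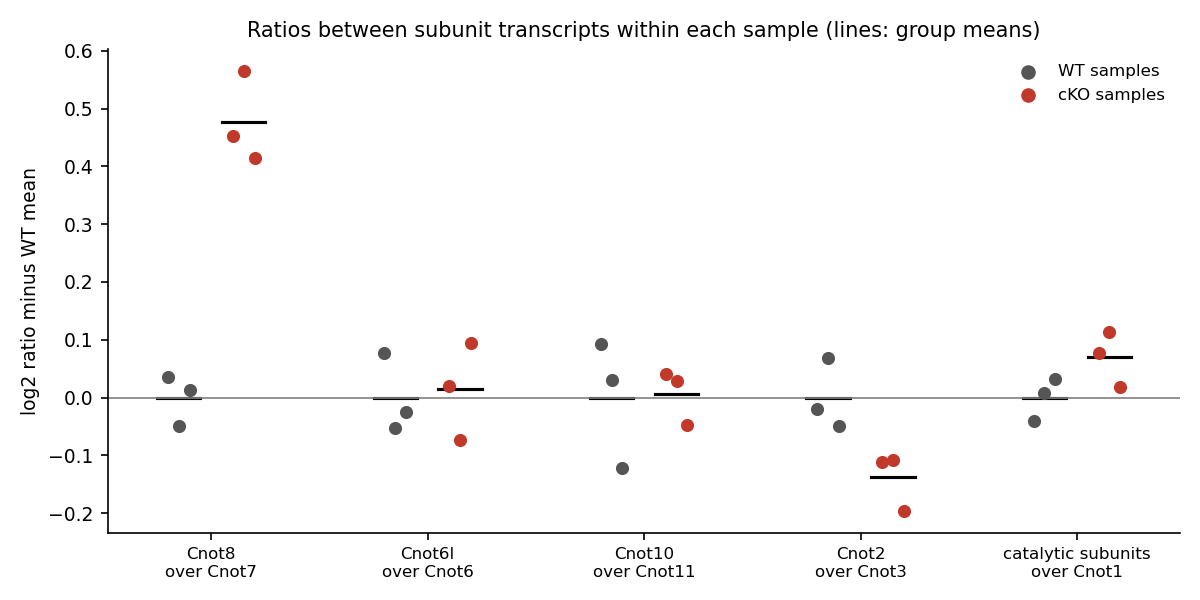
Ratios between subunit transcripts in each sample (y axis: log2 ratio minus the WT mean of that ratio), for 3 WT samples (grey) and 3 cKO samples (red), with lines at the group means. Cnot8 over Cnot7 lies 0.48 above the WT mean on average and Cnot2 over Cnot3 lies 0.14 below it, both without overlap, while the other 3 ratios overlap.

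Cnot4, the ubiquitin ligase, was the lowest of the 10 genes in normalized counts. It spans positions 35022065 to 35133724 on the minus strand of chromosome 6. It had 1418, 1444 and 1415 normalized counts in WT and 1695, 1686 and 1735 in cKO. The genotypes were well separated, with SDs of 1.13% and 1.53% of the mean that lay below the counting error of a single sample (2.51%). The log2 fold change was 0.26 (SE 0.0534, 95% interval 0.15 to 0.37, adjusted p = 0.000365). Cnot3, Cnot4, Cnot7 and Cnot8 were called with the same sign under all 13 alternatives, with adjusted p up to 0.0353 for Cnot3 and up to 0.00280 for Cnot4. Omitting the filter, which is among the 13, kept the same genes and could not differ from the main fit.

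**Figure D3:**
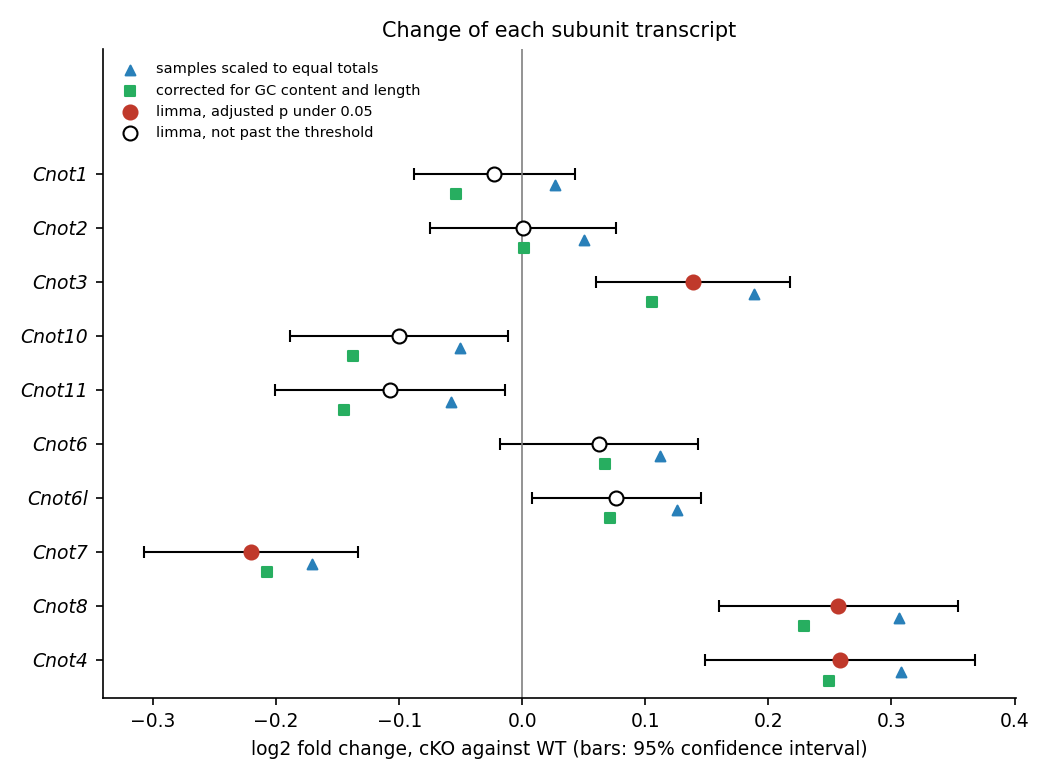
Log2 fold change of each subunit gene, cKO against WT (x axis), with 95% confidence intervals. Filled red circles passed an adjusted p of 0.05 and open circles did not, and the triangles and squares give the change with equal totals and after correction for GC content and length. All 4 called genes keep their side of zero under both settings, and Cnot1 changes sides with equal totals.

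Levels of different genes were compared per kilobase of annotated exon. In WT, Cnot2 was highest, at 1453 ± 32.3 normalized counts per kilobase, and Cnot4 was lowest, at 146 ± 1.64 (SD, n = 3), beside a median of 234 over all annotated genes. Between them came Cnot11 (1115), Cnot6 (994), Cnot1 (962), Cnot8 (953), Cnot6l (885), Cnot3 (702), Cnot7 (669) and Cnot10 (555). The WT ranges overlapped between Cnot6 and Cnot1, between Cnot1 and Cnot8, and between Cnot3 and Cnot7, so these neighbours did not differ beyond their spread. In cKO, the level of Cnot8 was 1139 ± 54.1 per kilobase, at rank 2. In WT it had rank 5, with a range that overlapped those of Cnot1 and Cnot6. The cKO level of Cnot7 was 574 ± 15.1 and kept rank 8. The order depends on the length used. Per kilobase of the longest coding transcript, WT Cnot7 had 1306 (rank 4) and WT Cnot8 1197 (rank 6). By that length Cnot1 ranked 2 and Cnot11 ranked 8, whereas Cnot2 stayed first and Cnot4 last.

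Some reads of these genes can come from a neighbour or a copy. Cnot7 shares 247 exonic bases with Zdhhc2 on the other strand, and Cnot3 shares 519 exonic bases with other genes, mainly Leng1. How the counting treated strand is not given in the sources used here. Zdhhc2 had 97.0 ± 2.26 normalized counts in WT and 123 ± 9.19 in cKO (adjusted p = 0.174), and Leng1 had 1120 ± 56.6 and 1166 ± 79.7 (adjusted p = 0.554). The part of this overlap in the value of Cnot7 was not tested. Cnot2 shares 232 exonic bases with 5330438D12Rik, a noncoding transcript that rose by 0.47 on the log2 scale (adjusted p = 0.00872), from 183 to 253 normalized counts. Cnot1 shares 132 exonic bases with the antisense transcript 4930513N10Rik (log2 fold change −0.35, adjusted p = 0.214). Processed pseudogenes resemble parts of Cnot8 (Gm18860, 97.8% over 760 bases), Cnot3 (Gm9207, 98.8% over 1116 bases) and Cnot1 (Gm6158, 99.8% over 903 bases, and Gm17752, 90.4% over 313 bases). Those 4 pseudogenes have no row among the listed genes, and the treatment of reads that map to several places is not given, so the values of Cnot8, Cnot3 and Cnot1 are uncertain to that extent.

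METTL3 writes m6A within a short motif whose commonest core is GGACT, so the motif was counted on the sense strand of the longest coding transcript of each gene. Over 11792 protein-coding genes, 92.2% of transcripts held it at least once, with a median of 1.05 per kilobase (quartiles 0.636 and 1.52). Cnot6 held 11 (1.92 per kilobase), Cnot4 held 5 (1.44), Cnot1 held 11 (1.31) and Cnot10 held 3 (1.05). The densities of Cnot11 (0.862), Cnot2 (0.714) and Cnot7 (0.671) lay below the median of all genes but within the quartiles. Cnot8 held 1 (0.476 per kilobase), Cnot6l held 3 (0.350) and Cnot3 held none. The subunits that rose thus had 0, 1 and 5 motifs and the subunit that fell had 2. A match is a description of the letters only, and m6A itself was not analysed here.

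The genes whose log2 values over the 6 samples were most like those of Cnot8 were Cdc34, a ubiquitin-conjugating enzyme (Pearson r = 0.995), Fuca2, a secreted fucosidase (r = 0.995), and Cdv3 (r = 0.994), among 6935 genes with a mean of at least 1000 normalized counts. They rose by 0.18, 0.19 and 0.19 on the log2 scale. The 6 points share the step between genotypes, and 247 genes had an r of at least 0.95, so many genes share this pattern.

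Outside the 10 subunits, genes of deadenylation and RNA decay, most of them cytoplasmic, also changed in both directions. Of 82 such genes, 76 were listed, of which 20 rose, 17 fell and 39 did not pass the test, against 26 higher and 11 lower with equal totals. The share called (48.7%) stands beside 36.6% of all genes, the median log2 fold change was 0.0086, and the median size was 0.11. Among 8 other deadenylases, 3 rose and 1 fell (median 0.10), a share of calls of 50% beside 36.6% of all genes. With equal totals, 4 were higher and 0 lower, and after correction for GC content and length 2 were higher and 2 lower. Pde12, a mitochondrial poly(A) nuclease, rose from 1683 ± 44.9 to 2523 ± 62.8 normalized counts (log2 fold change 0.58, adjusted p = 4.16e-10), a larger change than in any CCR4-NOT subunit. Angel2, a relative of the CCR4-type nucleases, rose from 3594 ± 67.6 to 4575 ± 58.0 (0.35, adjusted p = 7.98e-08). Toe1, a nuclear deadenylase of small RNAs, fell by 0.15 on the log2 scale (adjusted p = 0.0429) and lost the call with equal totals (adjusted p = 0.167) and without any single sample other than the second cKO sample (0.0758 to 0.205).

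Among 21 listed genes of further subunits and adaptors, 6 rose and 6 fell (median 0.0013), a share of calls of 57.1% beside 36.6% of all genes. With equal totals, 8 were higher and 3 lower. Btg2, an antiproliferative adaptor of the CAF1-type nucleases, was among the most abundant of them and fell from 179944 ± 4173 to 148678 ± 2805 normalized counts (log2 fold change −0.28, adjusted p = 4.66e-08). Samd4b, a Smaug-family RNA-binding protein, fell by 0.28 on the log2 scale (adjusted p = 2.90e-06). The Argonaute gene Ago4 rose from 85.5 ± 3.91 to 127 ± 12.9 (0.56, adjusted p = 0.0262) and Nanos1, which binds CNOT1, from 176 ± 6.58 to 259 ± 52.2 (0.53, adjusted p = 0.00644). Both had low counts. Nanos1 lost its call without the second cKO sample (adjusted p = 0.0770), and Ago4 without WT sample 1, cKO sample 1 or cKO sample 3 (0.0668, 0.109 and 0.0682). Cnot9, a core subunit outside the 10 and named after its values were seen, had 2858 ± 39.3 normalized counts in WT and 2671 ± 31.9 in cKO (log2 fold change −0.098, adjusted p = 0.0826). Its change was −0.13 with values adjusted for GC content and length (adjusted p = 0.0177) and −0.048 with equal totals (0.401).

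Of 11 listed genes for poly(A)-binding proteins and their partners, 5 rose and 4 fell (median −0.00022), a share of calls of 81.8% beside 36.6% of all genes. Without the first cKO sample, 3 rose. Larp4b (0.24, adjusted p = 8.19e-05) and Larp4 (0.20, adjusted p = 0.00104), which bind the poly(A)-binding protein, rose on the log2 scale. Paip2 and Paip2b, which hold the poly(A)-binding protein away from the tail, fell by 0.25 and 0.20 on the log2 scale (adjusted p = 1.52e-06 and 7.83e-05). Paip2 had 9378 ± 82.7 normalized counts in WT and 7867 ± 255 in cKO. Pabpc1l fell the furthest on the log2 scale (−0.76, adjusted p = 0.0356), from 77.8 to 46.9 normalized counts, and was named after its values were seen. It lost the call with equal totals (adjusted p = 0.0505) and without any single sample other than WT sample 1 or cKO sample 2 (0.0555 to 0.204).

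In the steps after deadenylation, called genes again lay in both directions, with shares called near the 36.6% of all genes. Of 20 genes for decapping and 5′ to 3′ decay, 3 rose, 4 fell and 13 were not called (median −0.0011), a share of 35.0%, and with equal totals 6 were higher and 4 lower. Lsm1, a part of the cytoplasmic LSM ring, rose from 961 ± 109 to 1272 ± 62.2 normalized counts (log2 fold change 0.41, adjusted p = 6.68e-05), whereas Lsm5, another member of that ring, fell from 2030 ± 101 to 1587 ± 85.6 (−0.36, adjusted p = 1.23e-05). Ddx6, the helicase that binds CNOT1 and the decapping machinery, fell from 27125 ± 521 to 22752 ± 481 (−0.25, adjusted p = 2.05e-07). Nudt16, a decapping hydrolase, rose by 0.33 on the log2 scale (adjusted p = 0.00284), although its genotypes overlapped. Of 16 listed genes of the exosome and the Ski complex, which degrade RNA from the other end, 3 rose, 2 fell and 11 were not called (median 0.0044), a share of 31.2%. Dis3l, a cytoplasmic exosome nuclease, rose from 1146 ± 33.0 to 1414 ± 45.2 (0.30, adjusted p = 0.000191), and the core subunit Exosc4 rose by 0.28 on the log2 scale (adjusted p = 0.00539). The core subunits Exosc9 and Exosc5 fell by 0.25 and 0.17 on the log2 scale (adjusted p = 0.00905 and 0.0195). Exosc5 lost its call with equal totals (adjusted p = 0.0897) and without WT sample 1 or cKO sample 3 (0.0737 and 0.108), and Exosc9 without the first cKO sample (0.0662).

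**Figure D4:**
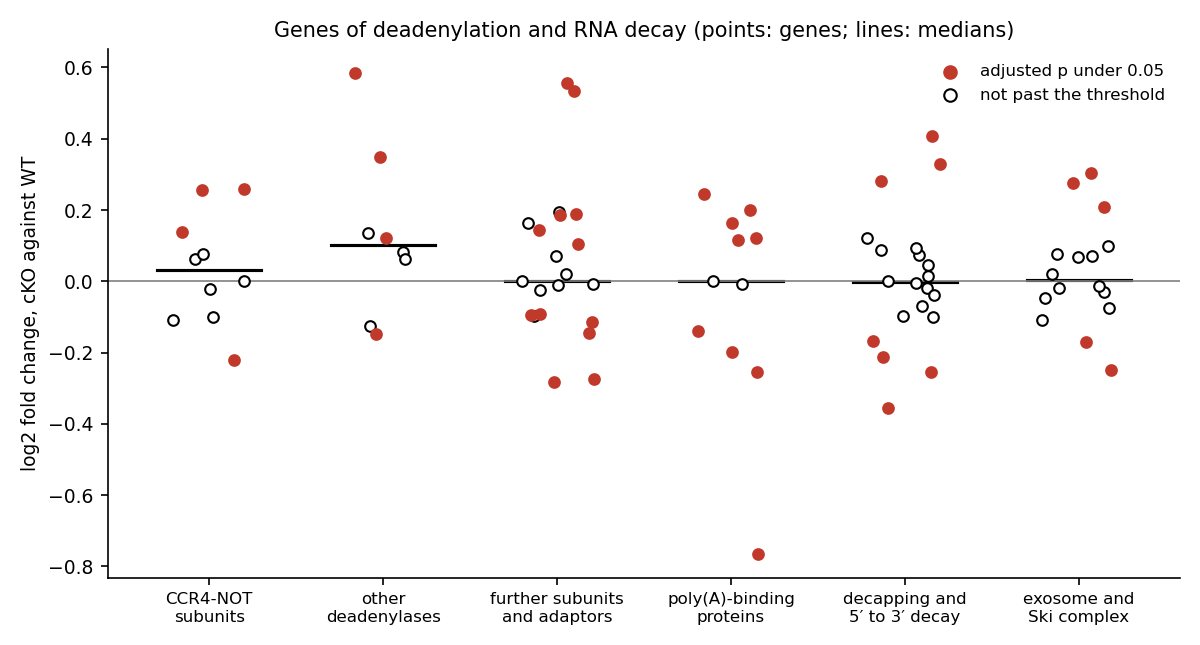
Log2 fold change, cKO against WT (y axis), of the CCR4-NOT subunits and 5 other groups of deadenylation and RNA decay genes, with 1 point per gene and lines at the medians. Red points passed an adjusted p of 0.05. Called genes lie on both sides of zero in all groups, and the medians lie between −0.0011 and 0.10.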

How the data were processed

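Poly(A)-selected mRNA of splenic NK cells sorted by FACS was sequenced in 3 WT and 3 cKO samples, which were grouped by the genotype in the sample labels. The submitters' processing notes name HISAT2 2.0.5, featureCounts 1.5.0-p3 and DESeq2 1.16.1 with GRCm38. What the authors deposited per sample is a signal, namely gene counts divided by the DESeq2 size factor of each sample. The remaining columns hold the authors' mean and their own comparison of the genotypes (fold change, standard error, test statistic and p-values) and were not used. All values of a sample are whole multiples of a single step to within 0.01 reads, which gives the reads on listed genes. No pair of samples of the same genotype agreed within sampling noise (chi-square per degree of freedom 5.50 to 8.01).

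Values were taken as log2(value + 1), and no gene was lost to the minimum of 1 in at least 3 samples. The genotypes were compared by limma 3.58.1 (R 4.3.3) with a variance trend and two-sided tests, and p-values were adjusted by Benjamini-Hochberg across the 14490 genes. The added 1 understates changes of low genes. Single values, ratios and sums were compared by exact permutation of the 6 samples, with 20 assignments (scipy 1.17.1). Intervals on fold changes are at the 95% level and counting errors cover counting only. Positions, lengths and sequences came from GENCODE vM21 on GRCm38, in which 97.1% of listed genes were found. Coding sequences were aligned with MAFFT 7.526, and copies with at least 90% identity over at least 150 bases were sought with BLAST+ 2.17.0. The fit was also run on simulated counts with a single dispersion for all genes and few changed genes, unlike these data. That run checks the code only.

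The alternatives were scaling to equal totals, adding 0.1 in place of 1, omitting the filter or raising it to 1 CPM in at least 3 samples, limma-voom on the reads, a block for the replicate number, leaving out each sample, and a correction for GC content and length with splines of 5 degrees of freedom. The subunits, gene lists and tests were chosen with earlier results of these data known. Genes named from each list are the 2 largest rises and 2 largest falls with an adjusted p under 0.05 and a mean of at least 1 CPM.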

Additional observations from a re-analysis of the deposited data

How the results depend on the processing

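With samples scaled to equal totals, the median change over the table moved to 0.051 (log2), 5 subunits were higher in place of 3, 11 decay genes were lower in place of 17, Cnot1 turned to 0.027, and the sum of Cnot7 and Cnot8 to 0.036 (0.079 when summed per kilobase, without rescaling). After correction for GC content and length, 3 subunits were lower in place of 1. With single samples left out, 1 to 3 subunits were lower (3 without the second WT sample), Cnot2 ranged from −0.018 to 0.017, the log2 difference of Cnot6l to Cnot6 from −0.027 to 0.058, that of Cnot10 to Cnot11 from −0.054 to 0.053, and that of the sum of Cnot7 and Cnot8 from −0.034 to 0.010. Cnot6l passed the threshold without the second cKO sample (0.095, adjusted p = 0.0446). T-cell markers lower were 1 in place of 2 without the first or second sample of either genotype, myeloid markers higher were 1 in place of 2 without WT sample 2 or cKO sample 1 or 3, and 1 erythroid marker was lower without the first WT or the first or second cKO sample. The causes of these shifts were not tested. Of 19 other decay genes named by rule, 14 were called under all 13 alternatives that were run, and Toe1, Ago4, Nanos1, Exosc9 and Exosc5 lost the call under at least 1. Omitting the filter was among these alternatives and could not change a call, since no gene was lost to it. The quasi-likelihood and Wald count tests listed as alternatives were not run, and limma-voom stood as the only test on the recovered reads. Deviations from the genotype mean correlated at −0.0244, 0.123 and 0.0651 between WT and cKO samples of the same number, over 11055 genes. Between samples of different numbers the correlations ran from −0.110 to 0.0483. Any pairing by number was thus weak, and not every sample correlated best with its own number. With the replicate number as a block, 2 subunits were lower in place of 1 (Cnot11 joining, adjusted p = 0.0429), and 5543 genes were called in place of 5307. The counting error of the subunits was 0.778 to 2.51% per sample, and their SD between samples 0.523 to 6.20% of the mean.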
